A study of Mus musculus with 6 samples.

Results

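The glucocorticoid-induced genes examined here are Sgk1, Fkbp5, Tsc22d3, Cdkn1a, Plin4 and Zbtb16, 6 genes known as targets of the glucocorticoid receptor in brain. They were chosen by name, with earlier results of these data known, out of 18193 genes with a probe set of their own. Every probe set annotated to exactly 1 symbol among the 6 was used, with no filter on dim signals, which gave 14 of the 45037 probe sets that are not array controls. Each probe set, a handful of short oligonucleotides, gives a single reading of a transcript. Sgk1 and Plin4 had 1 probe set each, Cdkn1a had 2, Fkbp5 and Zbtb16 had 3 each, and Tsc22d3 had 4.

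The series compared the brains of 4 female mice lacking melanotransferrin (MTf -/-, strain given as C57BL/6 - Lucy) with those of 2 female wild-type littermates (MTf +/+, strain given as C57BL/6). All were 123 days old, and each mouse had its own Affymetrix array. No treatment, stress, hormone measurement or time of day is given in the sources used here, nor what the word Lucy stands for or which part of the gene was deleted. Mice are numbered within their group only to name them.

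Glucocorticoids, corticosterone in the mouse, are steroid hormones of the adrenal cortex that follow the day and climb with stress. In a cell they bind the glucocorticoid receptor, encoded by Nr3c1, which leaves its chaperones, enters the nucleus and binds DNA at a pair of inverted hexamers. In brain the high-affinity mineralocorticoid receptor Nr3c2 also binds them, and the genes named here are widely used as transcript readouts of the hormone.

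The palindrome that the receptor binds was looked for in RefSeq start-site windows (GRCm38.p6, 250 bases before to 50 after each start). A match is a description of letters. The motif was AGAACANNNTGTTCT, which holds the hexamer AGAACA and its reverse complement 3 bases apart. It reads the same on both strands, and its hexamers were also searched singly on both strands. Windows were found for 5 of the 6 genes, 13 in all. The complete palindrome lay in 3 of 32851 windows of all genes, or 0.00913%. These 3 belonged to Sgk1, Acnat2 and Gm35041, the last pair named after the search was read. A single hexamer lay in 19.0% of all windows and in 4 of the 13. These were 3 of the 6 Sgk1 windows, of which 1 held the palindrome, and 1 of the 3 Tsc22d3 windows. The 2 windows of Cdkn1a held no hexamer, and neither did the 2 of Per1, genes that also separated the groups below. The Sgk1 window with the palindrome is shown because Sgk1 separated the groups described below, though knockout 3 (7298) and wild type 1 (6743.6) were close. The Tsc22d3 window is shown because it is the other gene with a hexamer. Capitals mark hexamers on either strand, and in the Sgk1 window the palindrome runs from base -189 to base -175 before the start.
Sgk1, chr10:21993640-21993939, plus strand: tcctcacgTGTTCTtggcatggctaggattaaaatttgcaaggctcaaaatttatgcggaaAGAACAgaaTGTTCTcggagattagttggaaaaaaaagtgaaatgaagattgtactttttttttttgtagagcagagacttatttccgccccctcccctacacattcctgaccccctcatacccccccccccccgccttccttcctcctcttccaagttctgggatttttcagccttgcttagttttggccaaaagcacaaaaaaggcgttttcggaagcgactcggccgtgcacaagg
Tsc22d3, chrX:140600473-140600772, minus strand: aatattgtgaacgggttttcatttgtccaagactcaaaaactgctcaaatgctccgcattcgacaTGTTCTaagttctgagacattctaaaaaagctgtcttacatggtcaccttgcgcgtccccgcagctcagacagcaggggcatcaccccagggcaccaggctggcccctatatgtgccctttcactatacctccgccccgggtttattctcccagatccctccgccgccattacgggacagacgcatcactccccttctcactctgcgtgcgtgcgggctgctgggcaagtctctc

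Melanotransferrin itself, probe set 1419755_at of Meltf, read 80.7, 132.9, 155.9 and 84.1 in the knockout mice and 146.5 and 228.7 in the wild-type mice. The groups overlapped, so this dim probe set does not check the labels. The deposited arrays had a common trimmed mean of 1000, and their median signals ran from 238.2 to 278.3 in the knockout against 192.5 and 240.3 in wild type. Wild type 1 was the dimmest array, with 24.5% of probe sets below the added offset of 49.6 against 17.6% to 20.2% elsewhere. Knockout 2 stood apart in cerebellar genes: its mean level over 7 cerebellar markers was -3.40 on the centred log2 scale, against 0.25 to 0.80 in the other knockouts and 0.83 and 0.84 in wild type. In it the Purkinje cell gene Pcp2 read 185.8 and the granule cell gene Gabra6 read 87.6, against at least 22259.7 and 6937.6 on every other array. The synaptic gene Snap25 read 54355.4 to 61027.3 in the knockout and 45275.1 to 60502.4 in wild type, so this neuronal transcript was abundant on every array.

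Across the 6 genes, Sgk1 and Cdkn1a had every knockout mouse above both wild-type mice on their brightest probe sets, by 1.60-fold and 1.53-fold in the fit, and the dimmest Zbtb16 probe set did so too. Fkbp5 and Tsc22d3, 2 of the most used readouts of the hormone, did not separate the genotypes on any probe set, and neither did Plin4. None of the 14 probe sets passed the test over the whole table. In limma, with Benjamini-Hochberg adjustment over 45037 probe sets, the smallest adjusted p among them was 0.738. The share of all probe sets that passed was 0%, with a smallest limma adjusted p of 0.349, while 3046 had an unadjusted p below 0.05. Log2 fold changes below are knockout minus wild type on the scale of log2(signal + 49.6), given ± their standard error from the fit. Each of these p-values sets a difference against the spread between single mice with 1 array each. The fit moderates that spread toward the one of probe sets with similar signal.

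Sgk1 encodes a serine/threonine kinase that regulates ion channels and transporters, and is expressed in oligodendrocytes among other brain cells. Its probe set 1416041_at read 9595.3, 7480.5, 7298 and 8262.7 in knockouts 1 to 4, against 6743.6 and 3786.5 in wild types 1 and 2. The knockout mice lay close together, the highest 1.31 times the lowest, while the wild-type mice differed by 1.78 times, and the gap between the groups was that between knockout 3 and wild type 1. Signals averaged 8159 ± 1045 in knockout mice (SD, n = 4), against 5265 ± 2091 in wild-type mice (SD, n = 2). The log2 fold change was 0.68 ± 0.21, and its 95% confidence interval ran from 0.20 to 1.15 (limma unadjusted p = 0.0101, adjusted p = 0.738). Wild type 2 decided its size: without that mouse the log2 fold change was 0.27, and without wild type 1 it was 1.09. Oligodendrocyte markers, 9 of 10 measured and none of them at 0, summed to 149800 to 192200 in the knockout against 144200 and 187800 in wild type. Knockout levels were above wild type for 2 of the 9 and below it for 7, the median being -0.14 in log2. Astrocyte markers, 10 of 10 measured, summed to 147000 to 164200 in the knockout against 132200 and 166300 in wild type, with 4 above 0 and 6 below. Their mean centred log2 level was -0.23 to 0.03 in the knockout, against 0.13 and 0.09 in wild types 1 and 2. Among them Gfap and Aqp4 were lower in every knockout mouse, at -0.63 ± 0.17 and -0.64 ± 0.18 (limma unadjusted p = 0.00461 and 0.00527, adjusted p = 0.738 each). Of all genes at their brightest probe sets, 2.45% were lower at a limma unadjusted p below 0.05, and 6.56% were lower without overlap. The 4 astrocyte markers above 0 were Slc1a2, Aldoc, Slc1a3 and Gja1, at 0.305, 0.211, 0.162 and 0.011. The part of these markers in the Sgk1 value was not tested, and in whole tissue fewer cells of a type and less RNA per cell cannot be told apart.

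Cdkn1a encodes p21, an inhibitor of cyclin-dependent kinases that is also induced by p53. Its brighter probe set, 1424638_at, read 1474.1, 1980.4, 2088.5 and 1646.3 across knockouts 1 to 4, against 1060.1 and 1243 in the wild-type pair. Knockouts 2 and 3 were the highest, and the lowest knockout stood clear of the higher wild type. The log2 fold change was 0.61 ± 0.17, interval 0.23 to 0.99 (limma unadjusted p = 0.00502, adjusted p = 0.738), the lowest unadjusted p of the 14. It lay between 0.50 and 0.72 with any 1 array left out.

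The dimmer Cdkn1a probe set, 1421679_a_at, also had every knockout mouse above both wild-type mice, with a wider spread. It read 63, 523.8, 389.3 and 50 in knockouts 1 to 4, against 11.9 and 37.3 in wild types 1 and 2. Knockouts 2 and 3 were again high, and the other pair of knockouts lay just above wild type 2. Both wild-type values and the lowest knockout values were near or below the offset, so the log2 fold change of 1.66 ± 0.71 (limma unadjusted p = 0.0420) depended on it: it was 0.87 with an offset 4 times as large and 2.36 with one 0.25 times as large.

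**Figure D1:**
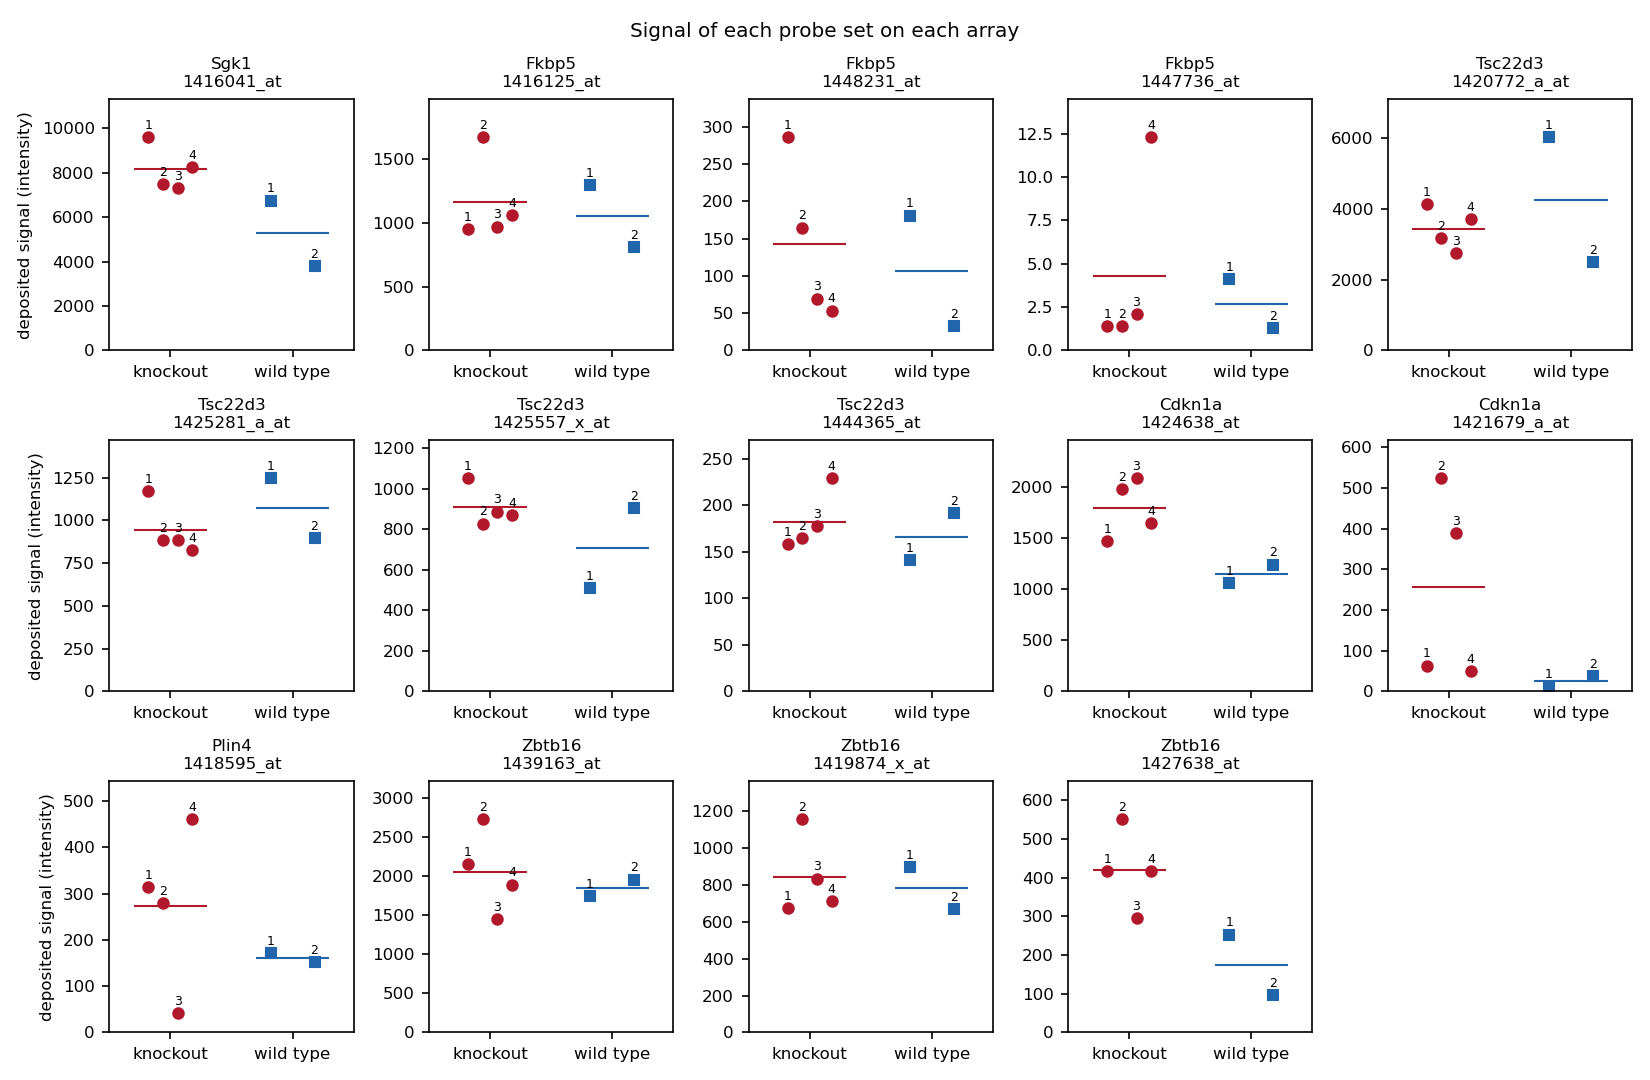
Deposited signal intensity (vertical axes, linear and from 0) of the 14 probe sets on the 4 knockout arrays (red circles) and the 2 wild-type arrays (blue squares), with each group's mean as a line and the mouse number above each point. Sgk1, both Cdkn1a probe sets and Zbtb16 1427638_at have all knockout points above both wild-type points, and the other 10 overlap.

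Zbtb16 encodes PLZF, a zinc finger transcriptional repressor whose transcript is strongly induced by glucocorticoids in several tissues. Its probe sets did not behave alike. The dimmest, 1427638_at, read 417.5, 551.3, 295.3 and 417 across knockouts 1 to 4, against 252.9 and 96.4 in the wild-type pair. Every knockout was higher, though knockout 3 and wild type 1 were close. Signals averaged 420.3 ± 104.6 in knockout mice (SD, n = 4), against 174.7 ± 110.7 in wild-type mice (SD, n = 2), or 1.13 ± 0.36 in log2 (limma unadjusted p = 0.0109, adjusted p = 0.738). It was 0.61 without wild type 2, 1.66 without wild type 1, and 0.75 with the offset 4 times as large.

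The other Zbtb16 probe sets were brighter and overlapped between the groups. The brightest, 1439163_at, read 2156.5, 2730.6, 1449.1 and 1892.6 in the knockout mice, against 1749.1 and 1958 in the wild-type mice. On 1419874_x_at, whose suffix marks probes that can also match other transcripts, the values were 674.7, 1156.8, 834.9 and 712.7 in the knockout and 897.3 and 669.2 in wild type. Their log2 fold changes were 0.11 (interval -0.37 to 0.59) and 0.087 (interval -0.44 to 0.61), and both were below 0 without knockout 2, at -0.032 and -0.067, and under median centring of the arrays, at -0.10 and -0.13. Knockout 2, the mouse with low cerebellar markers, was the highest of the 6 on all 3 Zbtb16 probe sets. The part of that tissue difference in these values was not tested.

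Fkbp5 encodes FKBP51, a co-chaperone that lowers the hormone affinity of the receptor and so closes a feedback loop. Its brightest probe set, 1416125_at, read 952.1, 1671.7, 970.8 and 1062.2 across knockouts 1 to 4, against 1298.3 and 810 in the wild-type pair. Knockout 2 was the highest and wild type 1 came next, above the other 3 knockouts. The log2 fold change was 0.14 ± 0.26, interval -0.44 to 0.71 (limma unadjusted p = 0.607). This interval includes both 0 and the Sgk1 value of 0.68. The value was -0.045 without knockout 2, -0.19 without wild type 2, 0.46 without wild type 1 and -0.078 under median centring.

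A dimmer Fkbp5 probe set, 1448231_at, read 286.2, 164.6, 69.4 and 53.4 in the knockout and 181 and 32.7 in wild type, so that the spread within each genotype was over 5-fold, 5.36 and 5.54 between the extremes. The third, 1447736_at, lay below the offset on all 6 arrays, between 1.3 and 12.3, and carries no usable level. On the first of these dim probe sets the mouse order differed from that of the brightest: knockout 1, not knockout 2, was the highest, and wild type 1 came second.

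Tsc22d3 encodes GILZ, a leucine zipper protein through which glucocorticoids restrain inflammatory signalling. Its 4 probe sets split in pairs according to wild type 1. On 1420772_a_at, the brightest, signals were 4132.2, 3173, 2739.1 and 3702.2 in knockouts, against 6012.8 and 2490.7 in wild types, which held the highest and the lowest of the 6. On 1425281_a_at signals were 1169.3, 885.7, 886 and 825.6 in knockouts, against 1246 and 894.1 in wild types, with wild type 1 again the highest. The order turned on the other pair. On 1425557_x_at knockouts read 1051.4, 827.3, 886.7 and 869.8 against 507.7 and 903.9 in wild type, and on 1444365_at they read 158.5, 164.7, 177.8 and 229 against 141.2 and 191.6, so that wild type 1 was the lowest of the 6 on both. The suffix of 1425557_x_at again marks probes that can also match other transcripts.

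The Tsc22d3 log2 fold changes were -0.19, -0.17, 0.39 and 0.10 in that order, with standard errors of 0.29, 0.20, 0.23 and 0.33, and the smallest limma unadjusted p of the 4 was 0.116. Which wild-type mouse was kept set the sign of 3 of the 4, and the other, 1425557_x_at, stayed at or above 0.0020, its value with wild type 1 left out, against 0.78 with wild type 2 left out. Without wild type 1 the brightest was 0.44 and without wild type 2 it was -0.82. The plotted values with 1 array left out show the same crossing for the 2 brighter Fkbp5 probe sets and for Zbtb16 1419874_x_at, at 0.29 without wild type 1 and -0.11 without wild type 2, but not for Sgk1, Cdkn1a or Plin4. Wild type 1 also had the highest level of endothelial and pericyte markers, 0.30 on the centred log2 scale against -0.21 to 0.02 in the knockouts and -0.09 in wild type 2. All 12 listed markers of these cells were measured, and they summed to 19000 to 21710 in the knockout against 27600 and 21410 in wild type. Their part in the Tsc22d3 values was not tested.

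**Figure D2:**
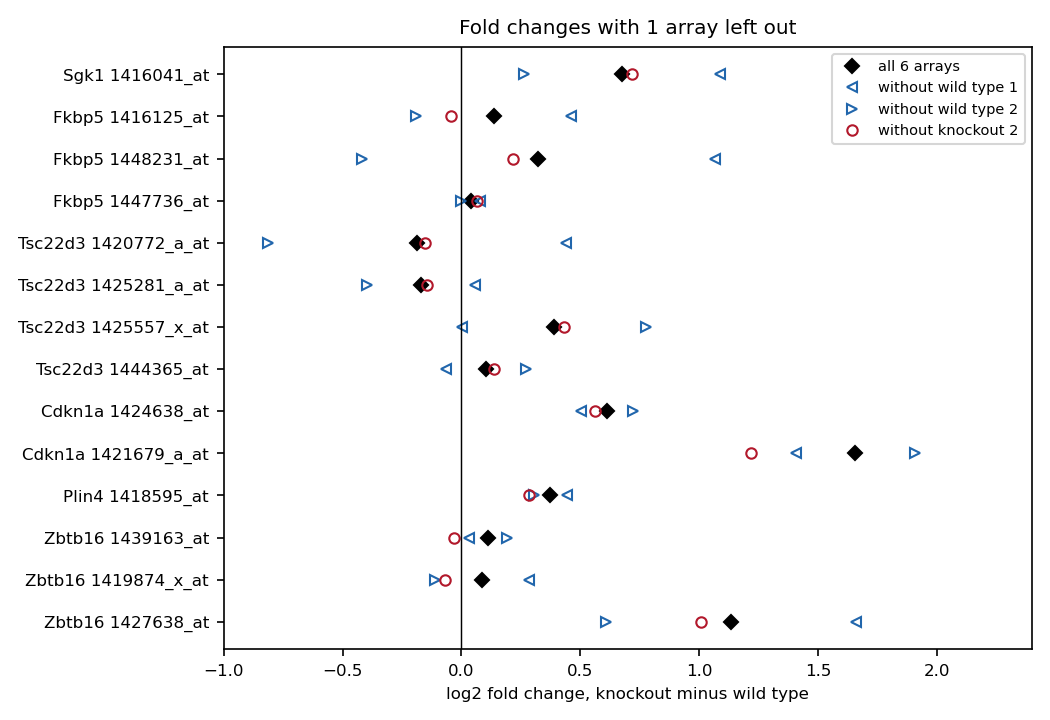
Log2 fold change, knockout minus wild type (horizontal axis), of the 14 probe sets (rows) with all 6 arrays (black diamonds), without wild type 1 or 2 (blue triangles pointing left or right) and without knockout 2 (red circles). Sgk1 lies at 0.27 to 1.09 and the brighter Cdkn1a probe set at 0.50 to 0.72, while Tsc22d3 1420772_a_at lies at -0.82 and 0.44 depending on which wild-type mouse is left out.

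Plin4 encodes perilipin 4, a coat protein of lipid droplets. Its only probe set, 1418595_at, read 313.4, 279.3, 42.2 and 460.6 across knockouts 1 to 4, against 171.8 and 151.5 in the wild-type pair. Knockouts 1, 2 and 4 were above both wild-type mice and knockout 3 was far below them, a span of 10.9 times within the knockout group. The log2 fold change was 0.37 ± 0.60, interval -0.96 to 1.71 (limma unadjusted p = 0.547), and it was 0.90 without knockout 3 and 0.074 without knockout 4.

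Taking the 14 probe sets together, 12 had a log2 fold change above 0 and 2, both of Tsc22d3, below it, where 60.3% of all probe sets lay above 0. Their median was 0.23 against 0.078 over all probe sets. Groups did not overlap, with the knockout higher, for 4 of the 14 against 11.3% of all probe sets, and, with the knockout lower, for 0 of the 14 against 4.81%. An unadjusted p below 0.05 was reached by 4 that were higher, against 4.92% of all, and by 0 that were lower, against 1.84%. These 4 are the probe sets of Sgk1, Cdkn1a and the dimmest Zbtb16, and they stand for 3 of the 6 genes. On the brightest probe set of each gene, 5 of 6 were above 0, against 53.6% of all 18193 genes at theirs, with a median of 0.26 against 0.024. An unadjusted p below 0.05 was reached by 2 of the 6, both higher, against 4.04% of all genes. The direction of several members depended on scaling: median centring moved the median of all probe sets by more than 0.1, to -0.14, and left 7 of the 14 above 0 and 1 with an unadjusted p below 0.05. Sgk1, both Cdkn1a probe sets and Zbtb16 1427638_at kept their direction there, at 0.46, 0.40, 1.44 and 0.92. Because the members were chosen with earlier results of these data known, the shares of all probe sets are given for scale and test nothing.

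**Figure D3:**
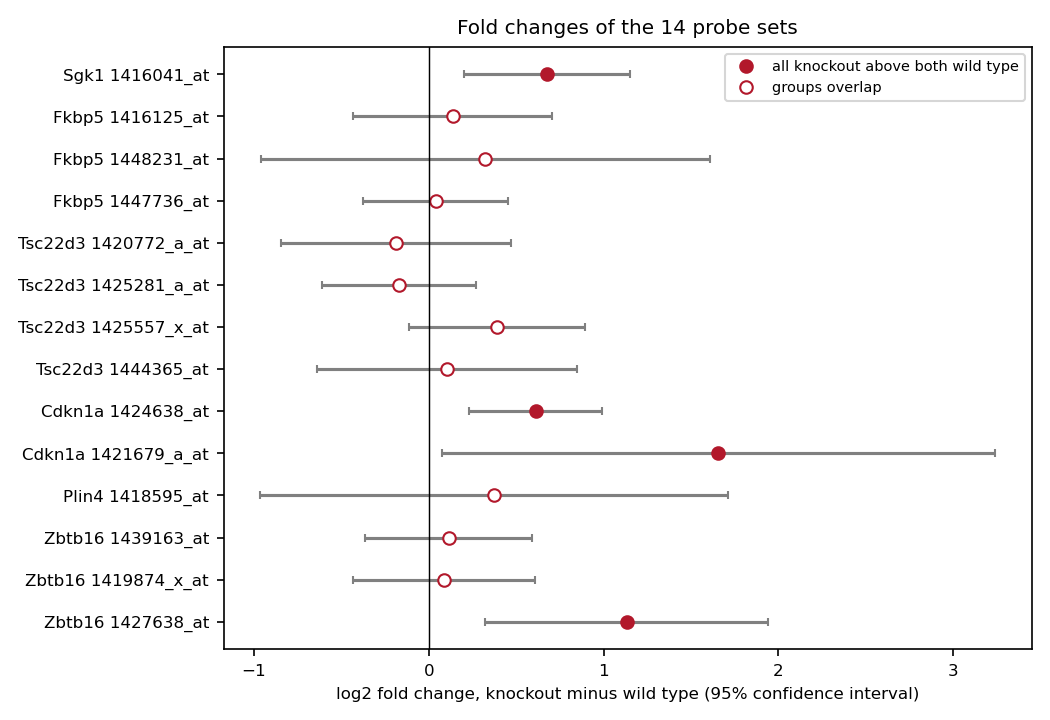
Log2 fold change, knockout minus wild type (horizontal axis), of each probe set (rows) with its 95% confidence interval from limma over 4 knockout and 2 wild-type arrays. Filled points mark the 4 probe sets whose knockout values all exceed both wild-type values, and the intervals of the other 10 include 0.

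The members did not rank the 6 mice in 1 order. Wild type 2 was the lowest of the 6 on 7 of the 14 probe sets and the highest on 0. Knockout 2 was the highest on 5, knockouts 1 and 4 on 3 each, wild type 1 on 2 and knockout 3 on 1. Averaged over the 6 genes at their brightest probe sets and centred, knockouts 1 to 4 stood at 0.18, 0.29, -0.32 and 0.22, against 0.02 for wild type 1 and -0.40 for wild type 2. Plin4, at -1.45 and below the offset in knockout 3, carried most of that mouse's value: over the other 5 genes knockout 3 averaged -0.09, against -0.41 in wild type 2.

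Genes with the most similar pattern over the 6 arrays were sought by the root mean square difference of centred log2 levels, on the brightest probe set of each gene. For Sgk1 they were Piezo1, Arhgap30 and Bhlha15, at 0.10, 0.12 and 0.12. For Cdkn1a they were G630016G05Rik, Dhx34 and Wdr64, at 0.082, 0.10 and 0.11. For Fkbp5 they were Rin1, Spata2l and Wipf3, at 0.086, 0.095 and 0.10, and for Tsc22d3 Slc30a7, Mtmr1 and Golga3, at 0.11, 0.14 and 0.14. The nearest to Plin4 was Col22a1 at 0.092, with A830005F24Rik and 4930527J03Rik at 0.28 each. For Zbtb16, which varied less over the arrays than the median probe set (SD 0.30 against 0.33 in log2), the nearest genes are not named under this rule. No member was among the nearest of another. These likenesses are descriptions over 6 arrays that share the 2 genotypes and the array differences given above.

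Of the receptors and the enzymes that handle the hormone, 0 had an unadjusted p below 0.05 in limma at the brightest probe set. Of all genes at theirs, 4.04% were higher and 2.45% lower at that threshold. On the brightest Nr3c1 probe set signals were 5248.1, 4424.3, 4392.7 and 3586.9 in knockouts, against 5253.6 and 5189.5 in wild types. The log2 fold change was -0.25 ± 0.15 (limma adjusted p = 0.760). The other 5 Nr3c1 probe sets lay between -0.24 and 0.76, the next 2 in brightness at 0.0091 and -0.084. Both ends of that range came from probe sets in the dimmest 40%. For Nr3c2 the log2 fold change was -0.071 ± 0.15, and 0.10 without wild type 2. Hsd11b1, which regenerates active corticosterone inside cells, read 3440.3, 2372.3, 3234 and 3314.5 in the knockout against 3967.4 and 3768.4 in wild type. Every knockout mouse was lower, by -0.33 ± 0.16 in log2 (limma adjusted p = 0.743). At the brightest probe sets Hsd11b1 was the only gene of this list whose groups did not overlap, where 6.56% of all genes were lower in this way. Hsd11b2, which inactivates the hormone, was dim, at 27.7 to 260.3 in the knockout and 97.2 and 29.8 in wild type. Of the 6 genes measured in this list of 7, 2 were above 0 and 4 below, where 53.6% of all genes lay above 0. Over all 12 of their probe sets, 5 were above 0 and 7 below.

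Chaperones and coregulators of the receptor, 9 of 13 measured, had 2 above 0 and 7 below, their median log2 fold change being -0.11, and 0 at an unadjusted p below 0.05. The lowest was Fkbp4, which encodes FKBP52, the partner that replaces FKBP51 on the receptor, at -0.36 ± 0.19, which was -0.13 without wild type 1. Its dimmer probe sets were 0.22 and 0.24. The highest was Hspa8, a constitutive chaperone, at 0.16, which was -0.053 under median centring, -0.072 under quantile normalisation and -0.087 without wild type 1. Stip1 was the only gene of the 9 whose groups did not overlap, where 6.56% of all genes were lower in this way. It read 3607.5 to 3728.7 in the knockout against 4128.7 and 3738 in wild type (-0.11 ± 0.11). Relatives of the members by family, 14 of 15 measured, had 6 above 0 and 8 below and a median of -0.018. They ran from Cdkn1b, which encodes the inhibitor p27, at -0.58 ± 0.36 and at -0.28 without knockout 2, to Cdkn1c, which encodes p57, at 0.17 ± 0.28 and at -0.046 under median centring. Plin2, another lipid droplet protein, was lower in every knockout mouse at 469.9 to 736.3, against 868.1 and 822.3 in wild type (-0.42 ± 0.22). It was the only gene of the 14 whose groups did not overlap, where 6.56% of all genes were lower in this way. No relative of the members had an unadjusted p below 0.05 in limma at its brightest probe set, where 4.04% of all genes were higher and 2.45% lower. Over all 38 probe sets of the relatives, 20 were above 0 and 18 below.

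Other genes known to be induced by glucocorticoids, 28 of 29 measured, had 19 above 0 and 9 below on their brightest probe sets. Of all genes at theirs, 53.6% lay above 0. The 28 had a median log2 fold change of 0.15. Of these, 3 that were higher and 1 that was lower had an unadjusted p below 0.05, against 4.04% and 2.45% of all genes at their brightest probe sets. In limma 0 passed over all probe sets (smallest adjusted p = 0.738). Groups did not overlap for 4 that were higher, Per1, Nfkbia, Mt2 and Arrdc2, and for 2 that were lower, Dusp1 and Cebpd, against 9.59% and 6.56% of all genes. Median centring left 12 of the 28 above 0. This list too was chosen with earlier results of these data known, so the shares are given for scale only.

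The clearest were Per1, a clock gene that the receptor also induces directly, and Nfkbia, the inhibitor of NF-kappa-B. Per1 read 2614.9, 2980.3, 2802.4 and 2303.5 in the knockout against 1636 and 1670.7 in wild type. The wild-type mice were nearly equal and every knockout was higher, 0.67 ± 0.14 in log2 (limma unadjusted p = 0.000647, adjusted p = 0.738). Nfkbia separated the groups on all 5 of its probe sets, with log2 fold changes of 0.43, 0.40, 0.34, 0.44 and 0.62 from the brightest to the dimmest. On the brightest it read 16559.4, 15566.1, 17420.4 and 19489.2 in the knockout and 13136.7 and 12317.3 in wild type. Each of the 5 had an unadjusted p below 0.05 in limma, from 0.00896 to 0.0363, and an adjusted p of 0.738. With any 1 array left out the brightest lay between 0.37 and 0.48, and under median centring it was 0.22.

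Pdk4, a kinase that restrains pyruvate oxidation, read 1592.4, 1498.6, 1308.4 and 1951.4 in the knockout and 960.9 and 1321.8 in wild type, which overlapped at knockout 3. Its log2 fold change was 0.46 ± 0.19 (limma unadjusted p = 0.0352), and it was 0.24 without wild type 1 and 0.25 under median centring. Dusp1, a phosphatase that switches off MAP kinases, went the other way. It read 5795.9, 6054.3, 6260.4 and 4964.6 in the knockout against 7591.8 and 7206.9 in wild type, lower in every knockout mouse, by -0.36 ± 0.13 in log2 (limma unadjusted p = 0.0214). The metallothionein Mt2, which binds zinc and copper, was higher in every knockout mouse at 17626.7 to 20480.7, against 15268.6 and 15156.7 in wild type (0.27 ± 0.14). Arrdc2 and Cebpd had 0.62 ± 0.33 and -0.28 ± 0.21, neither with an unadjusted p below 0.05.

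**Figure D4:**
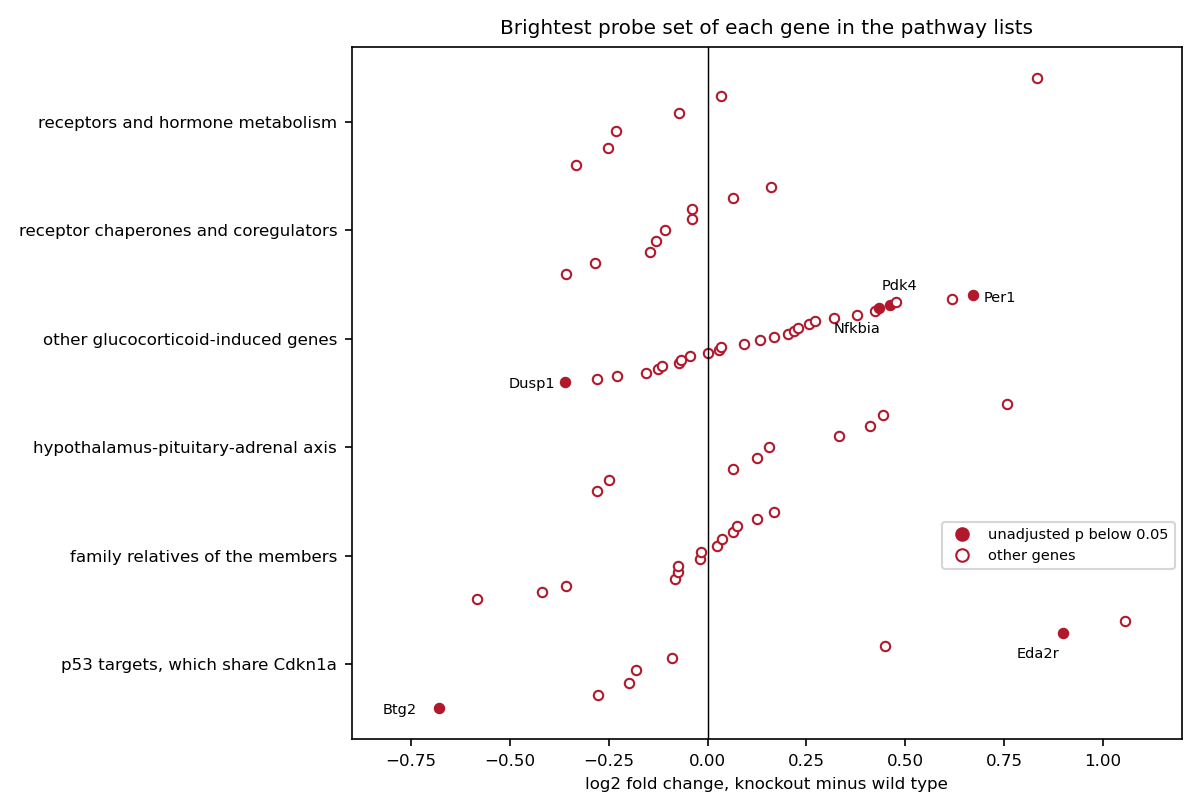
Log2 fold change, knockout minus wild type (horizontal axis), of the brightest probe set of every measured gene in 6 lists (rows, each spread vertically in order of its values). Filled points have an unadjusted p below 0.05 in limma, and they are Per1, Nfkbia and Pdk4 at 0.67, 0.43 and 0.46, Dusp1 at -0.36, Btg2 at -0.68 and Eda2r at 0.90.

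Since Cdkn1a also answers to p53, genes induced by p53 were read in the same fit. Of 8 measured of 10, 3 were above 0 and 5 below on their brightest probe sets, where 53.6% of all genes lay above 0. Their median log2 fold change was -0.14. Over all 15 of their probe sets, 8 were above 0 and 7 below. Btg2, an antiproliferative gene, read 1376.2, 1311.7, 1652.2 and 1482.4 in the knockout against 2071.2 and 2674.4 in wild type, lower in every knockout mouse (log2 fold change -0.68, limma unadjusted p = 0.00142). At the brightest probe sets Btg2 was the only gene of the 8 whose groups did not overlap, where 6.56% of all genes were lower in this way. Mdm2 and Ccng1, which are common readouts of p53 activity, were -0.28 and -0.090. The 3 above 0 were Eda2r, Sesn2 and Bbc3, at 0.90, 1.05 and 0.45. Bbc3 read 434.3 to 565.6 in the knockout against 278.8 and 441.3 in wild type, above the offset on every array (0.45 ± 0.25). The wild-type values of Eda2r, 8.6 and 10.6, lay below the offset, and with an offset 4 times as large its log2 fold change was 0.34. The brightest Sesn2 probe set rested on wild type 1, at 37.3 against 341 in wild type 2, and was -0.029 without that array. The dimmer Sesn2 probe set read 90.9 to 146.4 in the knockout, against 46.2 and 48.1 in wild type, 0.75 ± 0.34 in log2 (limma unadjusted p = 0.0502) and 0.66 to 0.82 with any 1 array left out.

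Genes of the hypothalamus, pituitary and adrenal axis, 9 of 9 measured, had 7 above 0 and 2 below and a median log2 fold change of 0.15, with 0 at an unadjusted p below 0.05. Of all genes at their brightest probe sets, 53.6% lay above 0, and 4.04% were higher and 2.45% lower at an unadjusted p below 0.05 in limma. Among the 7, Crhr2, Avp, Avpr1b and Mc2r lay in the dimmest 40% of probe sets. Crh, the hypothalamic releasing hormone that starts the axis and that glucocorticoids repress there, read 1571.2, 2290.9, 2229.6 and 917.6 in the knockout, against 1697.9 and 2387.7 in wild type. It had the lowest value of the list, -0.28 ± 0.32 in log2, which was -0.0080 without knockout 4. Mc2r, the receptor for the pituitary hormone that drives the adrenal, had the highest, 0.76, at 146.2 or less on every array. It was the only gene of the 9 whose groups did not overlap, at 65.4 to 146.2 in the knockout against 54 and 15 in wild type. Of all genes, 9.59% were higher in this way. Pituitary markers, 5 of 6 measured, summed to 11320 in knockout 3, against 701.9 to 1227 in the other knockouts and 1052 and 886.2 in wild type. Pomc, the precursor of the hormone that Mc2r binds and a member of both lists, read 1412.5 in knockout 3, against 389.8 to 492.6 in the other knockouts and 567.7 and 518.6 in wild type. The part of the pituitary markers in these values was not tested.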

How the data were processed

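Brain RNA of 4 knockout and 2 wild-type mice was read on 1 array each. The values the authors deposited are linear signal intensities, all above 0, from GCOS 1.3 per the submitters' processing notes. The method of summarising probes is not stated in the labels. On every array the middle 96% of values averaged 1000. Of 45101 probe sets, 64 were array controls and were not fitted. Under the platform annotation, 34945 probe sets had 1 symbol, 932 several and 9160 none, and 0 symbols changed against the gene table of GRCm38.p6.

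An offset of 49.6, the 20th percentile of all values, was added before log2, which understates fold changes of dim genes. Knockout minus wild type was fitted over all 45037 probe sets with lmFit and eBayes with an intensity trend (limma 3.58.1, R 4.3.3; 4 residual degrees of freedom, prior 5.91), with 2-sided p-values and Benjamini-Hochberg adjustment and a threshold of 0.05. The fit was tested on simulated data with shifts larger than most log2 fold changes given here, so that test does not bear on smaller ones. The number of arrays limits the precision. With 4 against 2 arrays there are 15 splits. Plots were drawn in Python 3.11.15.

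Alternatives were offsets 4 and 0.25 times as large, a filter on the dimmest 40%, quantile normalisation, median centring, no trend, robust variance, the brightest probe set per gene, and each array left out. Named genes were all member probe sets, and in each list the lowest and highest gene, those with an unadjusted p below 0.05 on the brightest probe set, and Nr3c1, Nr3c2, Hsd11b1 and Per1. Meltf, Pcp2 and Gabra6 were named as checks, and the likeness search took the 3 nearest genes outside the dimmest 40%. Mt2, Arrdc2, Cebpd, Plin2, Pomc, Mdm2, Ccng1, Snap25, Gfap and Aqp4 were added after the values were seen. So were Slc1a2, Aldoc, Slc1a3, Gja1, H6pd, Crhr2, Avp, Avpr1b, Bbc3 and Stip1. The members and lists were chosen with earlier results of these data known.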

Additional observations from a re-analysis of the deposited data

Results flagged for a closer look

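In 46 groups of 4 knockout values, 6 had 1 mouse whose gap to its neighbour was unusually large as a share of the group's range (Dixon's 95% critical value, log2 scale). Chance gives about 1 in 20. The share was 0.930 for Fkbp5 1447736_at, where knockout 4 read 12.3 and the other knockouts 1.4 to 2.1, all below the offset. It was 0.833 for Hsd11b1, where knockout 2 read 2372.3 and the others 3234 to 3440.3. For mean list levels the share was 0.937 for receptors and hormone metabolism, with knockout 1 at 0.38 against -0.15 to -0.12. Of that list H6pd and Hsd11b2 lay in the dimmest 40%, and H6pd read 397 in knockout 1 against 32 to 119.2 in the others. For the other glucocorticoid-induced genes the share was 0.836, with knockout 2 at -0.05 against 0.07 to 0.09. It was 0.834 for endothelial and pericyte markers, with knockout 2 at -0.21 against -0.01 to 0.02, and 0.868 for cerebellar markers, with knockout 2 at -3.40 against 0.25 to 0.80. Knockout 2 was the distant mouse in 4 of these 6, and the cause was not tested.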

How the results depend on the processing

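No paired analysis was possible because the labels give no shared replicate numbers. With a single wild-type array left, it was assumed to vary like the knockouts. Of all probe sets, 0 passed under every alternative except without wild type 2, where 171 did (range 0 to 171 with 1 array left out), and 0 member probe sets passed under any. Member probe sets with an unadjusted p below 0.05 were 1 under median centring and 2 when only the brightest per gene were counted, against 4. Those above 0 were 7 and 5, against 12. List genes with an unadjusted p below 0.05 were 6, and 11 under median centring, with 4 to 13 when 1 array was left out. The other induced genes above 0 were 12 under median centring, against 19.

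Reversed under median centring were Fkbp5 1416125_at (-0.078), Fkbp5 1447736_at (-0.18), Tsc22d3 1444365_at (-0.11), Zbtb16 1439163_at (-0.10), Zbtb16 1419874_x_at (-0.13), Cdkn1c (-0.046) and Hspa8 (-0.053), and under quantile normalisation Fkbp5 1447736_at (-0.017), Tsc22d3 1444365_at (-0.13) and Hspa8 (-0.072). With 1 array left out the ranges were -0.19 to 0.46, -0.42 to 1.07 and -0.029 to 0.078 for Fkbp5 1416125_at, 1448231_at and 1447736_at. They were -0.82 to 0.44, -0.40 to 0.059 and -0.065 to 0.27 for Tsc22d3 1420772_a_at, 1425281_a_at and 1444365_at, and -0.032 to 0.27 and -0.11 to 0.29 for Zbtb16 1439163_at and 1419874_x_at. They were -0.087 to 0.41 for Hspa8, -0.25 to 0.10 for Nr3c2 and -0.029 to 2.14 for Sesn2. Of 397 single-gene values 23 changed sign; the cause was not tested. For probe sets near the offset the size of a fold change depends on it.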
